A study of Sus scrofa with 3 samples.

Results

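Genes that mark the mesothelium were followed in visceral adipose tissue (VAT) of miniature pigs. The set held 10 named genes among 22826 mRNA genes, and it was chosen from earlier results on these same libraries, that is, from its levels in IM, CM and CMT, so levels and ratios are given as a description with no test. Of the 10 genes, 7 are mesothelium-specific markers (UPK3B, UPK1B, MSLN, WT1, CALB2, LRRN4 and BNC1) and 3 are general epithelial keratins (KRT8, KRT18 and KRT19). In the deposited values 9 were found by symbol. KRT19 was found by its gene ID, as LOC100515339, because RefSeq pairs that ID with KRT19.

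VAT came from retroperitoneal fat of male Chinese Wuzhishan miniature pigs, 6 to 7 months old at the start, which were all fed for 12 weeks on a diet rich in fat and cholesterol (HFC). IM pigs were intact and had skin incisions only, CM pigs were castrated, and CMT pigs were castrated and injected each week with testosterone propionate at 10 mg/kg in corn oil, while oil injections in IM and CM are not stated. RNA of 4 to 6 pigs per group by the labels, and of 4 by the methods of the study, was pooled in equal amounts into 1 library, so the groups have no replicates and the spread between pigs cannot be seen. Expression is given in UQRPKM, that is, reads per kilobase of gene divided by the library's upper-quartile count, and the reads behind each value were recovered from it. Values in sets of 3 are in the order IM, CM, CMT.

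The mesothelium is the single layer of flattened cells that lines the peritoneal cavity and covers the surface of visceral fat depots and organs. Its cells keep both epithelial and mesenchymal features. They carry keratin filaments and surface proteins such as mesothelin and uroplakins, and they express transcription factors, such as WT1, that are shared with the mesenchyme beneath. Keratin filaments are built from a type II chain (KRT8) paired with a type I chain (KRT18 or KRT19), and these simple keratins occur in nearly all simple epithelia, the liver included.

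The main pattern was an order of the libraries. In 7 of the 10 genes the level was lowest in IM, intermediate in CM and highest in CMT. These were MSLN, UPK3B, UPK1B, WT1 and BNC1 among the mesothelium-specific genes, and KRT8 and KRT19 among the keratins. KRT18 ran the other way. CALB2 and LRRN4 were at or near 0. In VAT, a higher level of these RNAs can come from more mesothelial cells in the pooled pieces of fat or from more RNA per cell, and these cannot be told apart. Of the mRNA genes that reached 1 UQRPKM in every library, 13.9% had levels in the same order, and 2.32% had the order together with a CMT level at least 2-fold above IM. MSLN, UPK3B, UPK1B, WT1, KRT8 and KRT19 met both of these rules and KRT18 met neither. BNC1, CALB2 and LRRN4 were under the minimum and are outside these shares.

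MSLN encodes mesothelin, a lipid-anchored glycoprotein of the mesothelial surface. It stood at 6.47, 15.4 and 59.5 UQRPKM, on 15, 34 and 135 reads. CMT was 9.18-fold above IM, with a 95% counting interval from 5.38-fold to 16.9-fold. The 3 levels were apart in the order IM, CM, CMT, although the counting intervals of the IM and CM levels met (3.62 to 10.7 and 10.7 to 21.5 UQRPKM). The larger step was the one from CM to CMT, 3.86-fold (2.63 to 5.80), against 2.38-fold (1.26 to 4.70) from IM to CM, and these intervals overlapped. Intervals throughout cover counting error only, because amplified reads are not independent molecules and each group is 1 library.

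UPK3B encodes an uroplakin-family membrane protein and is among the most restricted markers of mesothelial cells. Its levels were 4.93, 27.4 and 46.4 UQRPKM, on 41, 217 and 378 reads. CM was 5.55-fold above IM (95% interval 3.96 to 7.96) and CMT was 1.69-fold above CM (1.43 to 2.01). For this gene the larger step lay between IM and CM, and the intervals of its steps did not overlap.

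UPK1B encodes a tetraspanin that pairs with uroplakin III proteins. It had 2.58, 29.4 and 54.2 UQRPKM, on 7, 76 and 144 reads. The fold of CMT over IM was 21.0, which exceeded that of every other gene of the set, but its interval ran from 9.93 to 53.2 because the IM level rested on few reads. CM was 11.4-fold above IM and CMT 1.84-fold above CM, so UPK1B, like UPK3B, had its larger step between IM and CM.

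BNC1 encodes basonuclin 1, a zinc finger protein of stratified epithelia and mesothelium. It was the lowest of the genes measured in all 3 libraries, at 0.890, 4.20 and 9.76 UQRPKM, on 4, 18 and 43 reads. The ratio of CMT to IM was 11.0-fold, with an interval from 3.99 to 42.1. Since its IM level was under the minimum of 1 UQRPKM, it was left out of the counts against IM given further on.

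WT1 encodes the Wilms tumour transcription factor, which is present in mesothelium and in part of the mesenchyme of visceral fat. It was the most abundant mesothelium-specific gene in every library, with 29.5, 33.1 and 67.3 UQRPKM on 97, 104 and 217 reads. CM and IM did not differ beyond counting error (1.13-fold, interval 0.845 to 1.5), and CMT was 2.03-fold above CM (1.60 to 2.59). The rise of CMT over IM, 2.28-fold, had an interval (1.79 to 2.93) that lay wholly below those of MSLN, UPK3B, UPK1B and BNC1.

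CALB2, the calcium-binding protein calretinin, and LRRN4, a leucine-rich repeat membrane protein, are markers of mesothelium in other species. CALB2 had 2 reads in IM (0.919 UQRPKM) and 0 in CM and CMT, where a count of 0 allows up to 3 reads, or 1.45 and 1.41 UQRPKM. LRRN4 was at 0 in each library. A value of 0 does not show that the RNA was absent, and no ratio is given for these genes.

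**Figure D1:**
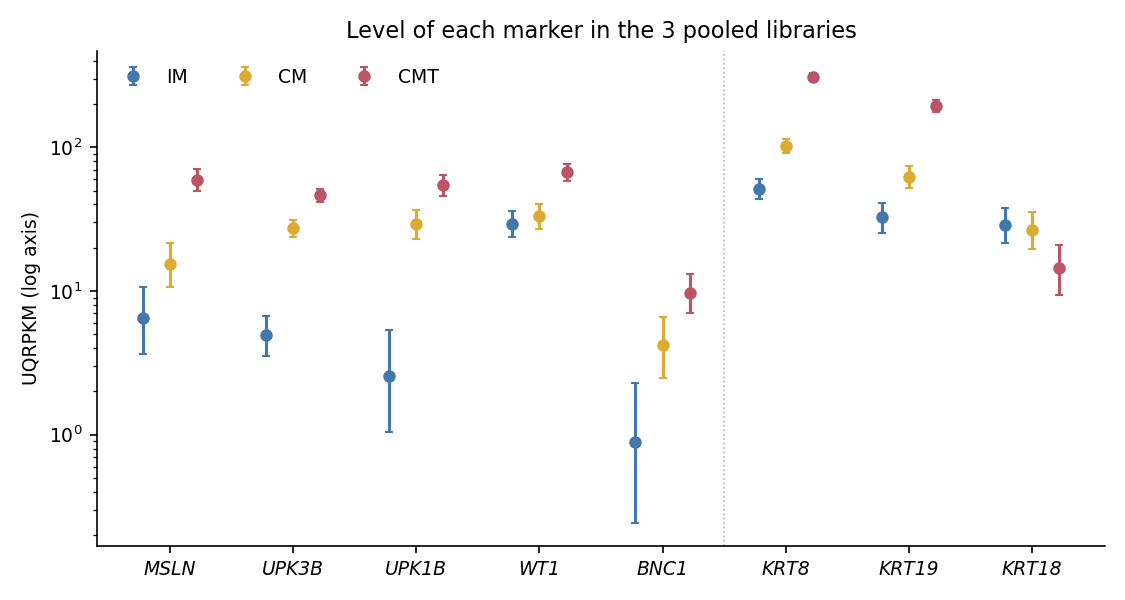
Level of each marker in UQRPKM on a log axis in IM (blue), CM (yellow) and CMT (red), 1 pooled library each, with bars for the exact 95% counting interval. Mesothelium-specific genes stand left of the dotted line and keratins right of it. MSLN, UPK3B, UPK1B, WT1, BNC1, KRT8 and KRT19 step upward from IM to CMT and KRT18 steps downward, while CALB2 and LRRN4 are left out because they are at or near 0.

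Within a library, the order of the mesothelium-specific genes changed. In IM, WT1 (29.5 UQRPKM) stood far above MSLN (6.47), UPK3B (4.93), UPK1B (2.58) and BNC1 (0.890), and the counting intervals of neighbours from MSLN to BNC1 overlapped. In CM, the intervals of WT1 (33.1), UPK1B (29.4) and UPK3B (27.4) overlapped, with MSLN (15.4) below them. In CMT, WT1 (67.3), MSLN (59.5) and UPK1B (54.2) had overlapping intervals, and BNC1 remained last. The interval of UPK3B (46.4, from 41.9 to 51.4) overlapped those of MSLN and UPK1B but lay below that of WT1. The level of MSLN passed 45.4% of the mRNA genes in IM and 68.0% in CMT, and that of UPK3B passed 43.7% and 64.3%. Summed over the 7 mesothelium-specific genes, the level was 45.3, 110 and 237 UQRPKM.

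The keratins were compared with the mesothelium-specific genes. KRT8 was the most abundant gene of the whole set in each library, with 51.2, 102 and 307 UQRPKM on 161, 307 and 946 reads. CMT was 6.00-fold above IM (5.07 to 7.13). Both steps were larger than counting error, at 2.0-fold from IM to CM and 3.0-fold from CM to CMT.

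KRT19, the shortest type I keratin, is common in ducts and mesothelium. It had 32.6, 62.1 and 194 UQRPKM, on 70, 127 and 408 reads, and CMT was 5.95-fold above IM (4.61 to 7.78). KRT19 and KRT8 kept nearly the same ratio, with KRT8 at 1.57, 1.65 and 1.58 times KRT19.

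KRT18, the usual partner of KRT8 in simple epithelia, did not follow. It had 28.7, 26.7 and 14.4 UQRPKM, on 53, 47 and 26 reads. CM and IM did not differ beyond counting error (0.931-fold, 0.615 to 1.4), and CMT was 0.501-fold of IM (0.301 to 0.815). KRT18 therefore made up 46.8% of the summed type I pair (KRT18 and KRT19) in IM, 30.1% in CM and 6.89% in CMT. KRT8 stood at 0.835, 1.15 and 1.47 times that sum. KRT8 and KRT18 lie close together on the same chromosome in RefSeq, with 1 gene model between them, so genes that lie near each other took opposite courses. KRT18 has many near-identical pseudogene copies in mammalian genomes. No copies were examined here, whether of KRT18, of KRT8 or of any other gene of the set. How the authors counted reads that map to several places is not given in the sources used here. The level of any gene with such copies is therefore uncertain, and their part in the courses of KRT18 and KRT8 was not tested.

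**Figure D2:**
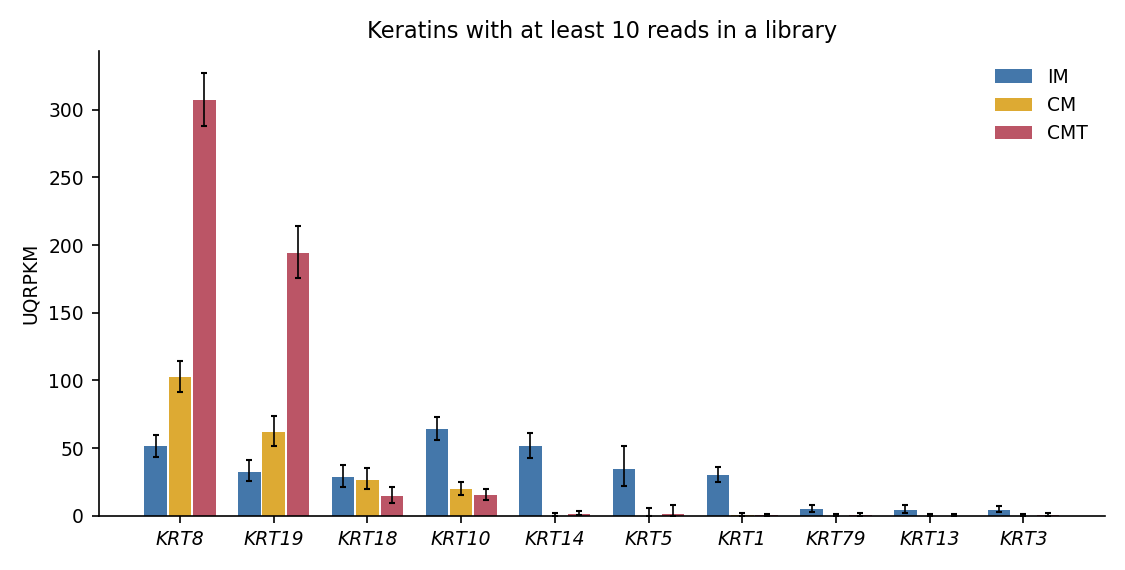
Keratin genes with at least 10 reads in a library, in UQRPKM on a linear axis, for IM (blue), CM (yellow) and CMT (red), with exact 95% counting intervals. KRT8 and KRT19 are highest in CMT at 307 and 194 UQRPKM, whereas KRT14, KRT5, KRT1 and KRT10 are highest in IM.

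Other keratins had a different course again. Among the 38 genes with a keratin symbol in the files, which leaves out KRT19, 9 reached 10 reads in IM and 3 did so in each of CM and CMT. Those of stratified epithelium, the skin type, were seen mainly in IM. KRT14 had 123 reads in IM (51.2 UQRPKM), 0 in CM and 3 in CMT, and KRT1 had 111, 2 and 1. KRT10 had 63.7, 19.4 and 15.3 UQRPKM. The keratin class as a whole thus had no common direction, and KRT8 and KRT19 moved opposite to KRT1, KRT10 and KRT14.

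In CM versus IM, the mesothelium-specific genes had a median log2 ratio of 2.24 over the 5 genes above 0 in both libraries, beside -0.06 over all mRNA genes, and the 3 keratins had a median of 0.93. All 5 mesothelium-specific genes were higher in CM, and 2 keratins were higher and 1 was lower. A gene was called changed at a ratio of at least 1.5-fold where both libraries had 1 UQRPKM or more. MSLN, UPK3B, UPK1B, KRT8 and KRT19 were called higher, 5 of the 7 genes with that minimum, beside 8.38% of all such mRNA genes. None was called lower, beside 10.4%.

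In CMT versus CM, the median was 1.02 for the mesothelium-specific genes and 1.58 for the keratins, beside -0.02 for all mRNA genes. All 5 measured mesothelium-specific genes and 2 keratins, 7 of 8 genes, were called higher, beside 9.53% of mRNA genes. When scaled to the stromal fibroblast list, 4 were called, and UPK3B (log2 ratio 0.31), UPK1B (0.43) and WT1 (0.57) were below 1.5-fold. The share of all mRNA genes called at that scale is not given. KRT18 was called lower with a log2 ratio of -0.89 (-1.64 to -0.17), beside 9.97%. The order of the medians of mesothelium-specific genes and keratins was the reverse of that in CM versus IM, but only with KRT19, which was found by its gene ID: without it the keratin median was 0.34. UPK1B, UPK3B and BNC1 had their larger step between IM and CM, and MSLN, WT1, KRT8 and KRT19 had theirs between CM and CMT. For BNC1, MSLN and KRT19 the counting intervals of both steps overlapped, so which step was larger is uncertain for these genes.

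In CMT versus IM, which sets the castrated and treated pigs against the intact pigs, the median was 3.23 for the mesothelium-specific genes and 2.57 for the keratins, beside -0.07 for all mRNA genes. Of 7 genes with the minimum level, 6 were called higher, beside 8.81% of mRNA genes, and KRT18 was called lower, beside 11.9%. A ratio of 4-fold or more was reached by MSLN, UPK3B, UPK1B, KRT8 and KRT19, beside 0.869% of mRNA genes. The 3 comparisons share libraries, and the third ratio follows from the other two, so they do not add to each other.

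**Figure D3:**
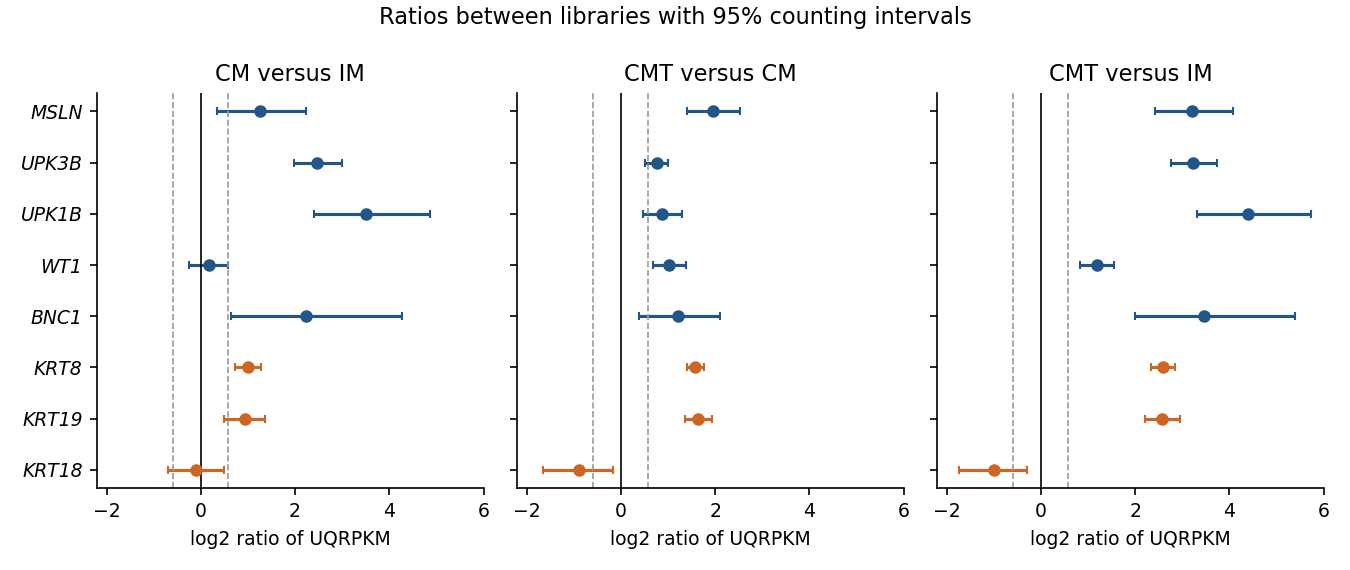
Log2 ratio of UQRPKM for each of the 3 pairs of libraries, for mesothelium-specific genes (blue) and keratins (orange), with exact 95% counting intervals and dashed lines at 1.5-fold. In CMT versus IM, 7 genes have intervals wholly above 0 and KRT18 has one wholly below it.

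**Figure D4:**
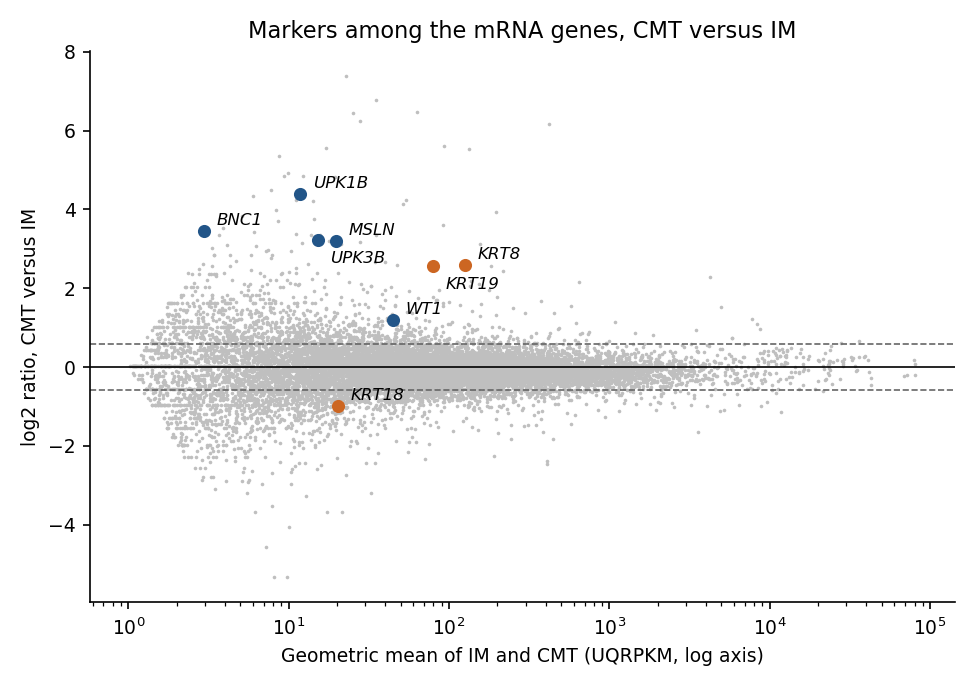
Log2 ratio of CMT versus IM against the geometric mean of both levels in UQRPKM (log axis) for mRNA genes at 1 UQRPKM or more in each of the pair (grey), with mesothelium-specific genes in blue and keratins in orange. BNC1 is drawn although its IM level was 0.890 UQRPKM, and dashed lines mark 1.5-fold. UPK1B, MSLN, UPK3B, KRT8 and KRT19 stand among the few genes above a log2 ratio of 2.

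Further genes known from mesothelium were taken from a list of 17, of which 14 were found and 8 had at least 10 reads in a library and over 1 UQRPKM in all 3. PRG4, which encodes the lubricant lubricin, had 1.63, 13.1 and 37.1 UQRPKM on 8, 61 and 178 reads, with CMT above IM by a log2 ratio of 4.51 (3.50 to 5.74). PKHD1L1, a large membrane protein, had 10, 21 and 51 reads and a log2 ratio of 2.38 (1.39 to 3.52) in CMT versus IM. DSP, the desmosomal protein desmoplakin, had 2.73, 9.75 and 11.3 UQRPKM, with a log2 ratio of 1.84 (1.31 to 2.39) in CM versus IM and 0.21 (-0.13 to 0.55) in CMT versus CM. PDPN, the glycoprotein podoplanin that lymphatic endothelium also carries, had 150, 175 and 250 UQRPKM.

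The more abundant genes of that list differed in course. SLPI, a secreted protease inhibitor, had 9887, 9483 and 8708 UQRPKM, and THBD, the thrombin receptor of endothelium, had 348, 350 and 312. Both were lower in CMT than in IM, with log2 ratios of -0.18 (-0.23 to -0.14) for SLPI and -0.16 (-0.25 to -0.06) for THBD. EFEMP1, an extracellular matrix protein, had the order of the set at a small size, with 1145, 1414 and 1453 UQRPKM and a log2 ratio of 0.34 (0.27 to 0.42) in CMT versus IM. ALDH1A2, which makes retinoic acid, was lower in CM and CMT than in IM, with log2 ratios of -0.87 and -0.77. In each library the levels of SLPI, THBD, EFEMP1 and ALDH1A2 were above the sum of the 7 mesothelium-specific genes. Which cells of the fat this RNA came from was not tested. In CMT versus IM, 4 of the 9 genes with the minimum level were called higher, beside 8.81% of mRNA genes. Of these 9, 1 was called lower, beside 11.9%, and the median log2 ratio was 0.34. From IM to CM, 3 were called higher (background 8.38%) and 1 lower (10.4%), and the median was 0.22. From CM to CMT, 2 were called higher (9.53%) and 0 lower (9.97%), and the median was 0.21. The whole list, mostly SLPI, summed to 12026, 11715 and 11065 UQRPKM and thus did not rise. Its summed reads in CMT versus IM gave a log2 ratio of -0.02 (-0.05 to 0.01). RSPO1 and CLDN15 were at 0 in every library, and MUC16, HAS1 and CRB2 had at most 2 reads.

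Markers that would point to another source of the same genes were also counted. UPK1B and UPK3B occur in urothelium, and of its markers UPK2 had at most 1 read, UPK1A at most 1 read and SNX31 at most 3 reads per library, while UPK3A had 13, 14 and 12 reads. WT1 marks podocytes of the kidney, and the podocyte markers NPHS1 and SYNPO had 0 reads, while PODXL, which endothelium also expresses, had 2026, 1124 and 1331. PLA2R1, another gene of the podocyte list, had 70, 63 and 124 reads, with log2 ratios of -0.08 (-0.60 to 0.43) in CM versus IM and 0.94 (0.49 to 1.40) in CMT versus CM, steps like those of WT1. All 6 tubule markers found were at 0 as well. Such values are of limited use, since the muscle genes CKM and MB were also at 0 in every library, although ACTA1 had 9176 reads in CMT. Of the 9 markers of simple epithelium found, EPCAM had at most 2 reads, GRHL2 at most 1, and CDH1, ELF3 and KRT20 were at 0. CLDN3 had 1, 6 and 5 reads, CLDN7 had 1, 1 and 6, and ESRP1 had 5, 3 and 0. In CMT versus IM, CLDN3 and CLDN7 were called higher, 2 of the 3 genes with the minimum level, beside 8.81% of mRNA genes. Their log2 intervals (-0.81 to 7.91 and -0.43 to 8.14) included 0. CLDN4, a tight junction protein, had 91, 23 and 117 reads, an order that differed from that of KRT8 and KRT19. Its level was 0.265-fold in CM versus IM (0.160 to 0.423) and 4.95-fold in CMT versus CM (3.14 to 8.11). In the latter comparison CLDN4 and CLDN7 were called higher, 2 of the 3 genes with the minimum level, beside 9.53% of mRNA genes. The log2 interval of CLDN7 there (-0.50 to 8.07) included 0. The list summed to 38.5, 19.6 and 58.5 UQRPKM in IM, CM and CMT.

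RNA of other tissues moved between the libraries beside the mesothelial genes. Among 12 hepatocyte genes, ALB, TF, TTR and others were high in CM, and the list without APOA1, which was high in every library, summed to 18.4, 7336 and 22.4 UQRPKM. KRT8 and KRT18 are also keratins of hepatocytes, and they had 102 and 26.7 UQRPKM in CM. Of 10 skeletal muscle genes, 8 were high in CMT, and the list summed to 82.3, 68.3 and 6130 UQRPKM. From CM to CMT the muscle list was 89.8-fold higher, in the same step in which all 7 rising genes of the set were higher. The stratified epithelium list summed to 199, 25.3 and 21.95 UQRPKM. The part of hepatocyte, muscle and stratified epithelium RNA in the ratios of the mesothelial genes was not tested.

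The summed lists of the fat itself varied less, although single genes in them did not. The 6 adipocyte genes found summed to 122559, 116714 and 99367 UQRPKM, and ADIPOQ, the adiponectin gene that defines adipocytes, had 65869, 57970 and 55020 reads. LEP, the leptin gene of the same list, had 167, 502 and 156 UQRPKM, 3.01-fold higher in CM than in IM and 0.311-fold in CMT versus CM. Stromal fibroblast genes summed to 24225, 21361 and 29129 UQRPKM, with COL1A1 at 0.502-fold in CM versus IM and DPT at 2.01-fold in CMT versus CM. Endothelial genes summed to 8455, 7539 and 8098, smooth muscle genes to 5396, 4054 and 3886, and macrophage genes to 468, 477 and 407. Per 10000 UQRPKM of adipocyte genes, the mesothelium-specific genes stood at 3.69, 9.39 and 23.9, and the 3 keratins at 9.18, 16.4 and 51.9.

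**Figure D5:**
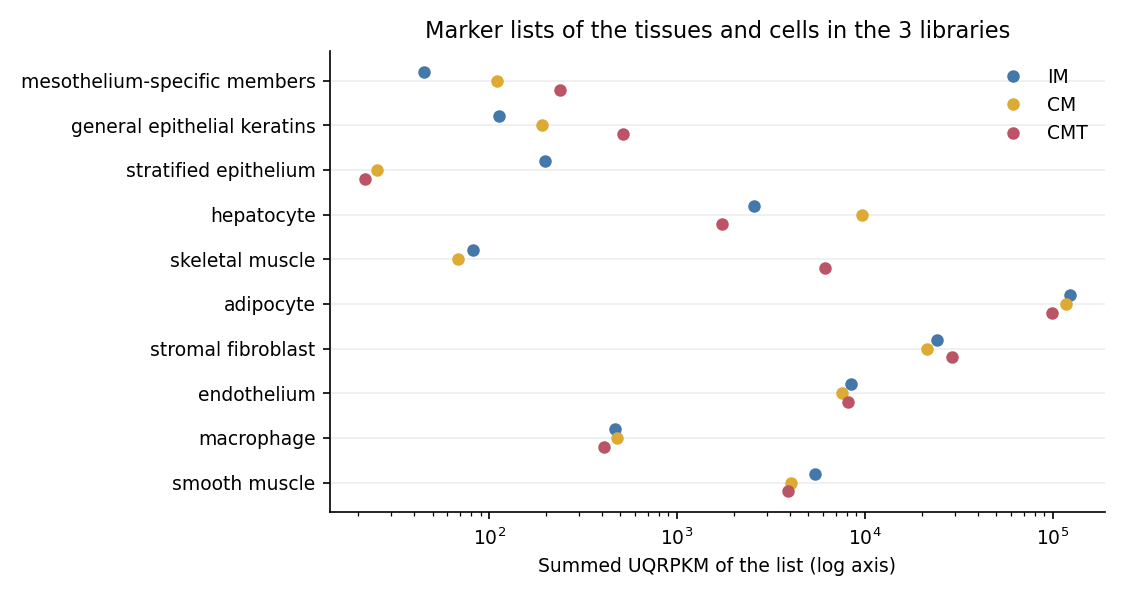
Summed UQRPKM (log axis) of the marker lists in IM (blue), CM (yellow) and CMT (red). The mesothelium-specific genes and the simple keratins rise from IM to CMT, the hepatocyte list peaks in CM, the skeletal muscle list in CMT and the stratified epithelium list in IM, while adipocyte, stromal and endothelial lists stay within 1.5-fold.

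The genes whose course was most like that of the set were named by the distance of their log2 ratios in CM versus IM and CMT versus IM from the medians of the 5 mesothelium-specific genes above 0 in all libraries (2.24 and 3.23). The first of these medians is the ratio of BNC1 itself, which rested on 4 reads in IM, and the second is the ratio of UPK3B itself. Over 3 libraries, such likeness is a description only. Among 9743 mRNA genes that reached 20 UQRPKM in every library, 0 lay within 0.1 and 0 within 0.5. The nearest 5 were FABP3, C3, LOC100626607, KRT8 and PA2G4, at distances from 0.961 to 1.40. FABP3, a fatty acid carrier of heart and muscle, had 1917, 8926 and 9268 UQRPKM, and C3, the central complement protein, had 308, 1322 and 1365. Their levels differed by less than 1.5-fold between CM and CMT, whereas that of KRT8 rose.

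A minimum of 20 UQRPKM leaves out most genes that are low in IM, as the mesothelium-specific genes were. After the values had been seen, likeness was therefore also computed for 12484 mRNA genes with at least 1 read in each library and 50 in all. Of these, 17 lay within a distance of 1, among them only 3 genes of the set. Apart from members of the set, the nearest with a gene symbol were MOXD1, ATP6V0A4 and KERA. MOXD1, a monooxygenase-like protein, had 14, 51 and 106 reads. ATP6V0A4, a proton pump subunit, had 9.28, 59.3 and 84.1 UQRPKM. KERA, the matrix proteoglycan keratocan, had 17, 53 and 154 reads.

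A stepwise course was also counted directly, by a rule set after the values were seen. It asked for counting intervals without 0 both from IM to CM and from CM to CMT, and for a CMT level at least 4-fold above IM. Of 14814 mRNA genes above 0 in all libraries, 19 met it, or 0.128%. These included 6 of the set, namely UPK1B, BNC1, UPK3B, MSLN, KRT8 and KRT19, and PRG4 from the further mesothelial genes. Because the set and the rule were both chosen from these same levels, the count of its genes among the 19 is a description only. The others included MYOZ1 and the titin gene (LOC100519519), which are genes of striated muscle with 341 and 184 reads in CMT, and KERA, ATP6V0A4, MOXD1, APRT and PA2G4. WT1 was outside, since its step from IM to CM did not exceed counting error and its total rise was 2.28-fold.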

How the data were processed

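RNA of the pigs of each group was pooled and sequenced as 1 Ion Proton library per group, single-end. The authors removed adaptors and poor reads, mapped the rest to the Sscrofa 10.2 pig genome with MapSplice, and deposited RPKM values scaled by the upper quartile (UQRPKM). The gene counter and its annotation are not given in the sources used here. The deposited values carry no coordinates, so positions are not given, and no sequences were used here.

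Each library was assigned by its label. Reads were recovered as the smallest whole numbers that fitted all libraries, with upper quartiles of 149, 142 and 146 for IM, CM and CMT. They fitted for 20838 of 20838 genes above 0 within a relative tolerance of 2e-08, and came to 14844063, 13582288 and 13449107 reads on mRNA genes. Reads that share a common factor are underestimated by it. On 3000 genes simulated for CMT versus IM with 200 changed, recovery gave the simulated reads for 92.8% and a divisor of them for 7.23%, and 95.6% of the intervals held the true ratio. The simulated reads were independent Poisson counts, as the intervals assume, so this share does not cover amplification or spread between pigs. Ratios are log2 ratios of UQRPKM with a pseudocount of 0, and intervals are exact Clopper-Pearson (ratios) or exact Poisson (levels) at 95%. No test was run, because each group is 1 library.

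The genes of the set and the marker lists were chosen with earlier results of these data known. Named were all genes of the set, the further mesothelial genes with at least 10 reads in a library, examples of each marker list, and the 5 genes of nearest course. Gene symbols not found were matched through the RefSeq gene IDs of the Sscrofa11.1 table. Alternatives were 2 other scalings, pseudocounts of 1 and 0.1, other fold and level minimums, and a limit on reads. Scaling to the adipocyte or stromal list and leaving out KRT19 were chosen after seeing the data. Analyses were run in Python 3.11.15 with scipy 1.17.1.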

Additional observations from a re-analysis of the deposited data

How the results depend on the processing

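No paired analysis was possible because each group is 1 library. The direction of the 24 ratios of the 8 genes above 0 in all libraries was kept by rank among mRNA genes, and 136 of 144 alternative log2 ratios stayed within the counting interval of the ratio as deposited. The exception in sign was KRT18 in CM versus IM (-0.10), which turned to 0.08 when scaled to the stromal list and was not beyond counting error in either. With the stromal list as scale, 4 genes in place of 7 were called higher in CMT versus CM. With a minimum of 10 UQRPKM, 2 in place of 5 were called higher in CM versus IM and 3 in place of 6 in CMT versus IM. The genes no longer called were MSLN, UPK3B and UPK1B, whose IM levels of 6.47, 4.93 and 2.58 UQRPKM were under that minimum. With a limit of 2-fold KRT18 was no longer called lower in either comparison with CMT (0 genes). Shares of all mRNA genes under these alternatives are not given, so these counts have no background beside them.

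The median log2 ratio of mesothelium-specific genes in CM versus IM was 2.24, and it was 1.46 with a pseudocount of 1, 1.25 over genes with at least 10 reads in both libraries and 1.5 from summed reads. In CMT versus CM it was 1.02, and 1.25 or 0.57 when scaled to the adipocyte or the stromal list. In CMT versus IM it was 3.23, and 3.54 or 2.97 with those scales and 2.50 from summed reads. The keratin median was 1.82 or 1.14 in CMT versus CM and 2.88 or 2.31 in CMT versus IM with those scales, and 2.31 in the latter from summed reads. Without KRT19 it was 0.45 for the first pair (CM versus IM), 0.34 for CMT versus CM and 0.79 for CMT versus IM, since KRT8 and KRT18 differ in direction. The cause of the other changes was not tested. Depth limits UPK1B and BNC1 in IM, at 7 and 4 reads.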

Other observations

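The closest relatives of the mesothelium-specific genes, looked up after the values were seen, differed in course. UPK3A, the urothelial relative of UPK3B, had 8.18, 9.25 and 7.71 UQRPKM in the order IM, CM, CMT, and its log2 ratio in CMT versus IM was -0.09 with a counting interval from -1.35 to 1.16. BNC2, the relative of BNC1 found in mesenchyme, was higher than BNC1 in each library, at 15.9, 15.7 and 14.2 UQRPKM, with a log2 ratio of -0.17 (-0.57 to 0.23). UPK1A and MSLNL had at most 1 read per library. LRRN3, a relative of LRRN4, had 27.1, 37.8 and 47.0 UQRPKM and a log2 ratio of 0.79 (0.49 to 1.10) in CMT versus IM, in the order of the set. LRRN1, another relative, had 32, 36 and 15 reads and a log2 ratio of -1.06 (-2.05 to -0.14). LRRN4CL, a separate gene whose symbol resembles LRRN4, stood at 2716, 3013 and 1474 UQRPKM and was lower in CMT than in CM by a log2 ratio of -1.03.

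Among transcription factors shared by the mesothelium and the visceral mesenchyme, TBX18 had 90.1, 69.2 and 85.2 UQRPKM, and NR2F1 had 100.1, 71.9 and 79.4. TCF21 had 17, 3 and 13 reads, with CM lowest. In CMT versus IM, 0 of the 4 such genes that reached 1 UQRPKM in both were called higher or lower, beside 8.81% and 11.9% of mRNA genes, so a count of 0 is near that background.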
